A study of Mus musculus with 24 samples.

Results

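Interleukin-6 (Il6), the chains of its receptor (Il6ra and Il6st), the kinase and transcription factor behind them (Jak1 and Stat3), and the proteins that shut the signal off (Socs1, Socs2, Socs3, Cish and Ptpn2) were followed across splenic dendritic cells (DCs) of mouse pups. These 10 genes were found by symbol among 12393 genes, and together held 23 of the 22626 probe sets on the array. They were picked as a pathway with values of the naïve comparison already known, so every at-risk against normal value in naïve DCs is given here as a description and without a test. In naïve at-risk DCs, Il6, Socs2, Socs3 and 1 probe set of Ptpn2 were lower than in naïve normal DCs. By 1 Socs3 probe set, however, the arrays of these groups overlapped. After allergen, Socs3 fell in at-risk and in normal pups, whereas Il6, Socs2 and that Ptpn2 probe set fell in normal pups and did not pass the test in at-risk pups. These changes use the same naïve arrays as the naïve comparison and are no independent evidence. A call in normal pups and none in at-risk pups does not test whether the changes differ.

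The study asked how a mother's asthma alters the DCs of her offspring, and measured 24 Affymetrix arrays of CD11c+ DCs from spleens of BALB/c pups at day 14 of life. Asthma-at-risk pups were born to mothers that had been sensitized and challenged with ovalbumin (OVA), and normal pups were born to control mothers. Stimulated pups received 1 injection at day 3 by the sample labels and at day 4 by the methods, with OVA (5 µg) and alum (1 mg). Naïve pups received none, and no group received alum or vehicle alone. The effects of OVA, alum and the injection itself thus cannot be told apart, and "allergen" below stands for them together. Set 1 held 4 stimulated at-risk, 4 stimulated normal, 4 naïve at-risk and 3 naïve normal arrays, and Set 2 held 5 stimulated at-risk and 4 stimulated normal arrays. By the methods the RNA of Set 2 was amplified with NuGEN, 1 array of each set was left out as an outlier, and the sets were preprocessed separately, so levels are ordered only within a set, and amplification and set cannot be told apart. The methods call the arrays biological replicates, but the sources used here do not say how many pups or litters made up an array. The p-values thus measure the spread between arrays, which may be partly technical. Arrays from the same litter would not be independent in a comparison of mothers. A call means a limma adjusted p of at most 0.05, taken over all 22626 probe sets, and a change of at least 1.25-fold (0.32 on the log2 scale).

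IL-6 is a cytokine made by DCs, macrophages and stromal cells after microbial or inflammatory signals. It binds Il6ra, the complex recruits the shared chain Il6st (gp130), Jak kinases on gp130 become active, and Stat3 is phosphorylated and moves to the nucleus. Among the genes that Stat3 turns on is Socs3, whose protein binds gp130 and Jak and ends the signal, while Socs1, Socs2 and Cish act mainly on receptors for interferons, growth hormone and other Stat5-linked cytokines. Ptpn2 is a tyrosine phosphatase that removes phosphate from Jak1 and Stat proteins. In DCs, IL-6 and Stat3 are known to hold back maturation and to shape the T cell response.

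Promoter sequence is shown for Il6 and Socs3 because their signals moved most among the 10 genes. RefSeq promoters (GRCm38.p6) were at hand for 8 of the 10 genes, and the 250 bases before the start were searched on both strands for TTCNNNGAA (Stat), the NF-kB motif with 1 position left free, TGANTCA (AP-1) and TGACGTCA (CRE), motifs that did not overlap in these genes. For Il6, chr5:30012864-30013113 on the plus strand is printed with its matches in capitals, AP-1 at -249 to -243 and NF-kB at -44 to -35 from the start. For Socs3, the 30 bases around its match are printed, chr11:117969501-117969530 on the minus strand, with the Stat motif at -154 to -146 in capitals.
Il6: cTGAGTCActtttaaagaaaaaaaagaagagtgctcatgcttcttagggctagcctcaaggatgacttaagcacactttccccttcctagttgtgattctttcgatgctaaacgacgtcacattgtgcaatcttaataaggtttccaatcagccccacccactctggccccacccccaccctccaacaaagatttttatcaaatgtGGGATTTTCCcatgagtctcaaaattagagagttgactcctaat
Socs3: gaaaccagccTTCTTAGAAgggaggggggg
NF-kB matches stood in 0.356% of 32851 promoters, AP-1 matches in 6.75%, Stat matches in 7.02% and CRE matches in 1.55%. The other match among the 8 promoters was a CRE in Jak1 at -101 to -94. A match describes letters and does not show that a factor binds there, and protein binding was not measured on these arrays.

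The cells carried the markers of their label. Of 15 DC markers, 14 were measured, and their mean log2 signal was 12.35 to 12.64 on all 24 arrays, with Itgax, which encodes CD11c, at 12.63 to 13.10. Markers of other cells differed between groups. The mean of 9 platelet markers was 9.51 to 10.45 in stimulated at-risk and 9.37 to 9.85 in stimulated normal arrays of Set 1, against 5.72 to 6.03 in naïve at-risk and 5.73 to 5.96 in naïve normal arrays. In Set 2 it was 7.90 to 9.39 in at-risk and 6.34 to 6.55 in normal arrays. Of the naïve normal arrays, AF79 stood apart in RNA quality by Actb. Its signal at the 3′ end exceeded that at the 5′ end by 1.26 on the log2 scale. The other 23 arrays had 0.36 to 0.82, of which AF123, a stimulated at-risk array of Set 2, was highest. By Gapdh AF79 was less apart, at 1.59, with 1.33 and 1.14 on the other naïve normal arrays and 1.41 on AF84. Naïve at-risk arrays had 0.89 to 1.27 by Gapdh, so by this control the naïve normal group as a whole tended higher. In these bulk samples, fewer cells of a type and less RNA per cell cannot be told apart.

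**Figure D1:**
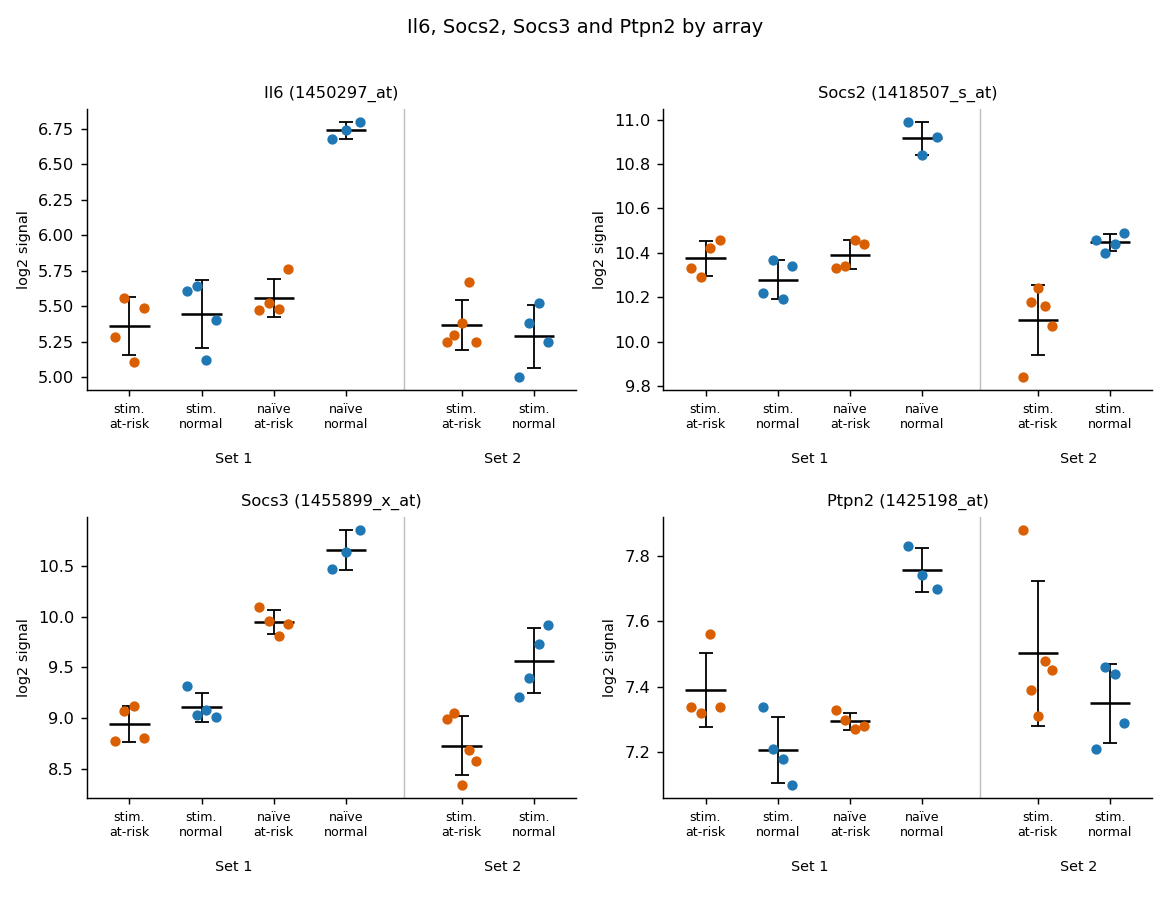
Log2 signal (y axis) of 1 probe set each of Il6, Socs2, Socs3 and Ptpn2 in the 6 groups (x axis), with 1 point per array, at-risk in orange, normal in blue, and black lines for the mean ± SD. In Set 1 the 3 naïve normal arrays lie above all 12 other arrays in each panel, Il6 at 6.68 to 6.80 for example. By the brightest Ptpn2 probe set, not shown, they do not, with 11.13 to 11.15 against up to 11.16 in stimulated at-risk arrays. Nor do they by Socs3 1416576_at, not shown, with 9.18 to 9.91 against up to 9.40 in naïve at-risk arrays.

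Il6 has 1 probe set, and in Set 1 its signal was higher in the naïve normal group than in the other groups. Its log2 signal was 5.47, 5.52, 5.48 and 5.76 in naïve at-risk arrays and 6.68, 6.74 and 6.80 in naïve normal arrays. The groups lay apart, with a difference of -1.18 (SE 0.13), so that the at-risk signal was 44.0% of the normal signal. Stimulated arrays of Set 1 had 5.28, 5.56, 5.11 and 5.49 in at-risk pups and 5.61, 5.64, 5.12 and 5.40 in normal pups. Thus the naïve normal arrays lay above each other array of Set 1. Over all probe sets, arrays had a lower quartile of 5.00 to 5.09 and a median of 8.09 to 8.22. Il6 thus lay under the median in every group, and near the lower quartile outside the naïve normal group.

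In normal pups, Il6 fell by 1.30 after allergen (log2 scale; SE 0.13, adjusted p = 1.08e-05), reaching 40.7% of the naïve level. In at-risk pups the change was -0.20 (SE 0.12, 95% interval -0.45 to 0.06, adjusted p = 0.398). The allergen comparisons share their naïve arrays with the comparison that the genes were chosen on, so their values are no independent evidence about those arrays. Set 2 had 5.25, 5.30, 5.38, 5.67 and 5.25 in stimulated at-risk arrays and 5.00, 5.38, 5.52 and 5.25 in stimulated normal arrays. Both sets overlapped between at-risk and normal pups. Over all 17 stimulated arrays the difference was 0.00 (SE 0.09, 95% interval -0.19 to 0.20, adjusted p = 0.989).

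The receptor was present in every group, and with all arrays in the fit and weighted equally no probe set of it was called in any comparison. Il6ra, the IL-6 binding chain, had 11.06 to 11.36 in naïve at-risk and 11.08 to 11.32 in naïve normal arrays by its brighter probe set, and the stimulated arrays of Set 1 lay at 11.01 to 11.15 in at-risk and 11.04 to 11.12 in normal pups. In Set 2 that probe set was more spread, with 9.61, 10.17, 11.07, 10.45 and 10.45 in at-risk arrays and 11.35, 11.15, 10.66 and 10.50 in normal arrays. The at-risk values were lower on average by 0.57 but overlapped the normal ones (SE 0.27, adjusted p = 0.252), and the lowest value was that of AF123. The difference between the sets for this probe set was -0.58 and not called. With array weights it was -0.67 and called (adjusted p = 0.0466). The dimmer probe set of Il6ra had 6.67 to 7.75 in naïve at-risk and 6.05 to 7.16 in naïve normal arrays, where AF79 had the 6.05 (0.75, SE 0.27). With allergen in normal pups it changed by 0.63 (SE 0.27, adjusted p = 0.149), and without AF77 by 0.89, which was called (adjusted p = 0.0493).

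Il6st, the signaling chain shared by the IL-6 family, lay at 10.22 to 10.82 on all arrays by its brightest probe set. Its difference between at-risk and normal pups was 0.09 in stimulated DCs (SE 0.05, adjusted p = 0.379), and its allergen changes were -0.11 (SE 0.07) in at-risk and -0.08 (SE 0.08) in normal pups. Its other probe sets, near 6 to 7, behaved otherwise in naïve DCs: 1460295_s_at had 6.97 to 7.06 in at-risk and 6.33 to 6.83 in normal arrays (0.48, SE 0.11), and 1421239_at had 6.45 to 6.51 in at-risk and 5.63 to 6.27 in normal arrays (0.46, SE 0.14). Neither passed the threshold with all arrays. Both had their lowest naïve value on AF79, and without AF79 these differences were 0.38 and 0.27. Without AF77 the difference of 1460295_s_at was 0.63 and passed. The allergen change of 1460295_s_at in normal pups was 0.22 (SE 0.11, adjusted p = 0.23), and without AF77 it was 0.37 and called (adjusted p = 0.0272). That of 1421239_at was 0.02 (SE 0.14). In at-risk pups they changed by -0.19 (SE 0.10, adjusted p = 0.332) and -0.33 (SE 0.13, adjusted p = 0.161), without overlap. With only the compared groups in the fit, the fall of 1421239_at was called (adjusted p = 0.00817).

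With all arrays in the fit and weighted equally, Jak1, a kinase bound to gp130, was called by 1 of its 3 probe sets, in 1 comparison. The brighter probe sets had 10.86 to 12.12 (1433803_at) and 10.81 to 11.84 (1433805_at) and were called in no comparison in that fit. With allergen in normal pups they changed by -0.36 (SE 0.13, adjusted p = 0.0933) and -0.21 (SE 0.11, adjusted p = 0.215), and a call came for 1433803_at without AF76 (-0.50, adjusted p = 0.0264) and for 1433805_at without AF79 (-0.38, adjusted p = 0.00625). Its dimmest, 1433804_at, had 9.63, 9.48, 9.58 and 9.19 in stimulated at-risk arrays and 9.86, 10.14, 10.26 and 9.93 in naïve at-risk arrays. These groups did not overlap, and the fall of 0.58 (SE 0.17) was called with an adjusted p of 0.05, at the threshold itself. The call was lost without any 1 of 11 arrays (AF80 to AF83, AF85 to AF91), with an adjusted p of up to 0.149. In normal pups the same probe set had 9.70, 9.24, 9.23 and 9.30 with allergen and 10.09, 10.12 and 9.27 without, the last from AF79, and its change of -0.46 (SE 0.19, adjusted p = 0.124) was not called. Without AF79 it was -0.74 and was called. With array weights and no array left out, 1433805_at (-0.38, adjusted p = 0.00305) and 1433804_at (-0.75, adjusted p = 0.00147) were called in normal pups. On AF79 the probe sets of Jak1 also parted most among naïve arrays, with 12.12 for 1433803_at and 9.27 for 1433804_at.

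Stat3, the transcription factor of this pathway, had 10.47 to 11.02 on all arrays by its brightest probe set. Allergen changed it by -0.24 in normal pups (SE 0.06, adjusted p = 0.02), which is under the 1.25-fold threshold and so no call, and by -0.12 in at-risk pups (SE 0.06, adjusted p = 0.282). In stimulated DCs the difference between at-risk and normal pups was 0.01 (SE 0.04, 95% interval -0.09 to 0.10). The second probe set, 1426587_a_at, ranged wider in Set 2, from 8.27 to 9.40 in at-risk arrays and from 9.02 to 9.95 in normal arrays, without a call. With allergen in normal pups it changed by -0.27 (SE 0.18, adjusted p = 0.356), and without AF79 by -0.57, which was called (adjusted p = 0.0076). With array weights and no array left out it was called too (-0.57, adjusted p = 0.00434). The third, 1424272_at, lay at 4.29 to 4.79, under the lower quartile of all probe sets.

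**Figure D2:**
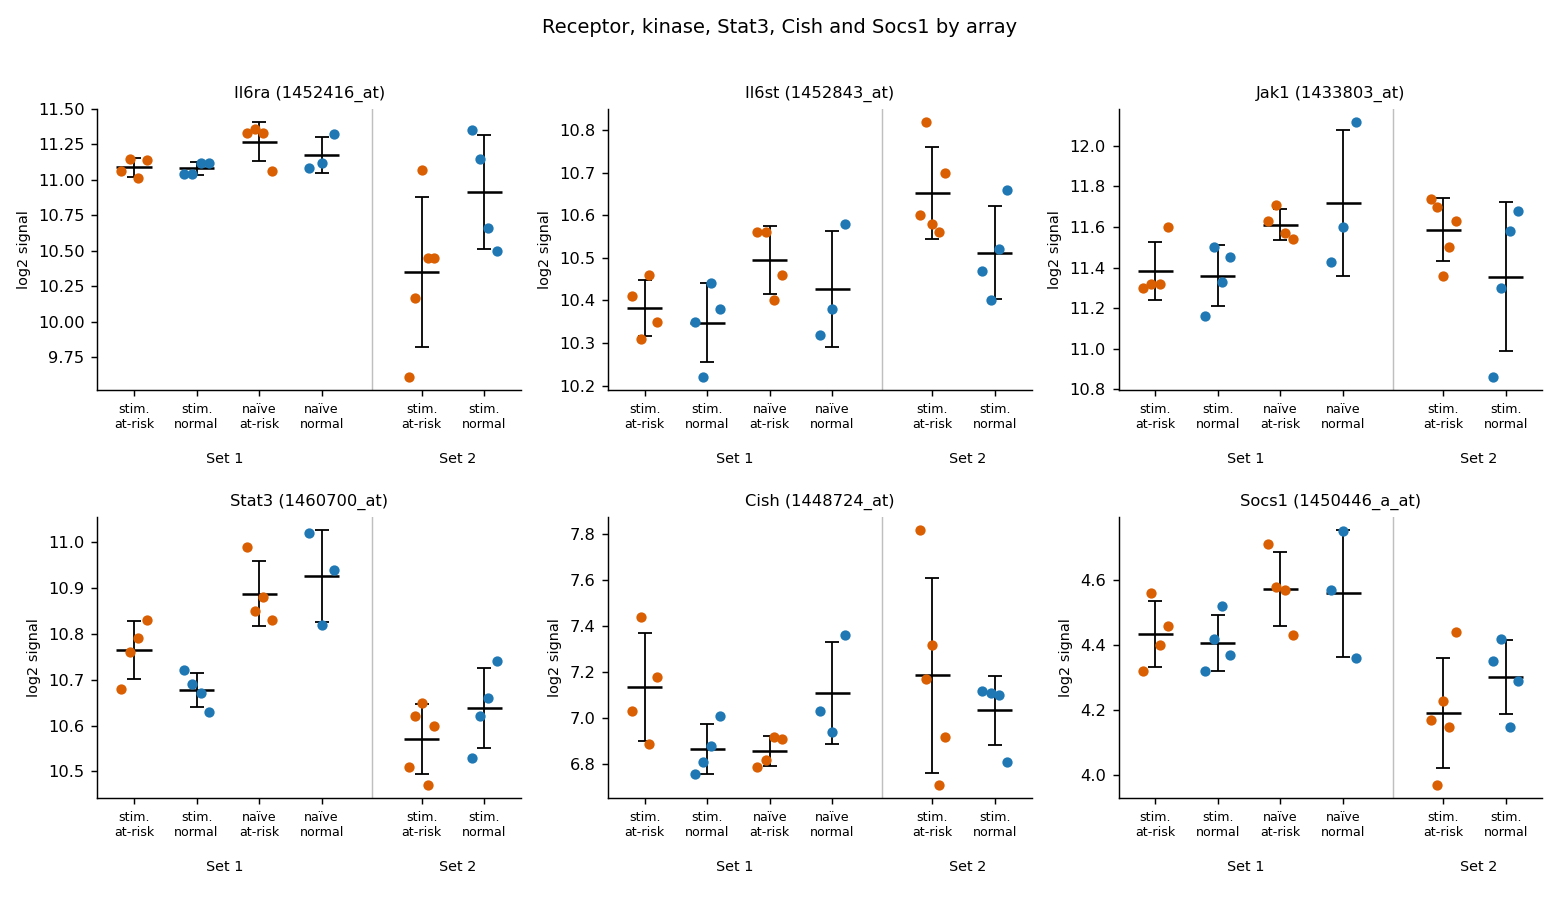
Log2 signal (y axis) of the brightest probe set of Il6ra, Il6st, Jak1, Stat3, Cish and Socs1 in the 6 groups (x axis), with 1 point per array, at-risk in orange, normal in blue, and black lines for the mean ± SD. At-risk and normal stimulated arrays overlap in all 6 panels, and Stat3 spans only 10.47 to 11.02.

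Among the inhibitors, Socs3 moved most. By its brightest probe set, 1455899_x_at, it had 8.78, 9.07, 9.12 and 8.80 in stimulated at-risk arrays of Set 1 and 10.10, 9.96, 9.81 and 9.93 in naïve at-risk arrays. In normal pups the values were 9.32, 9.03, 9.08 and 9.01 with allergen and 10.47, 10.64 and 10.86 without. In each case the stimulated arrays lay below the naïve ones. After allergen, Socs3 fell by 1.01 in at-risk pups (SE 0.11, adjusted p = 1.84e-05), to 49.8% of the naïve level, and by 1.54 in normal pups (SE 0.11, adjusted p = 7.7e-07), to 34.3%. Its other probe sets were called too, with falls of 1.13 (1456212_x_at) and 1.15 (1416576_at) in at-risk pups and of 1.54 and 1.33 in normal pups. These calls held without each of the 15 arrays in turn.

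In naïve DCs, Socs3 was lower in at-risk than in normal pups by 0.71 (SE 0.11) with 1455899_x_at and by 0.69 (SE 0.12) with 1456212_x_at, and the arrays of the groups did not overlap. The third probe set, 1416576_at, had 9.40, 9.25, 9.25 and 9.03 in at-risk arrays and 9.77, 9.91 and 9.18 in normal arrays, where AF79 was the low one (-0.39, SE 0.14). AF79 was at the same time the highest normal array for the other probe sets. Without it the difference was -0.61 for 1455899_x_at and for 1416576_at and -0.58 for 1456212_x_at, and the threshold was passed by 1416576_at but no longer by the others. That of 1456212_x_at was also missed without AF82 or AF83 (-0.67 each). Probe sets with the suffix x hold probes that may also match other transcripts.

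In stimulated DCs, the difference in Socs3 between at-risk and normal pups differed in size between sets. In Set 2, 1416576_at had 7.44, 7.97, 7.80, 7.77 and 7.61 in at-risk arrays and 8.43, 8.48, 8.62 and 8.58 in normal arrays. The groups lay apart, and the fall of 0.81 (SE 0.10, adjusted p = 0.00202) left 57.1% of the normal signal. The mean of 12 T cell markers moved with it, at 8.82 to 9.15 in at-risk and 9.47 to 9.55 in normal arrays of Set 2, and the part of T cells in it was not tested. The falls of 1456212_x_at and 1455899_x_at were 0.81 (SE 0.14, adjusted p = 0.0106) and 0.83 (SE 0.18, adjusted p = 0.027). The first of these was called without each of the 9 arrays in turn, as was 1416576_at, whereas 1455899_x_at lost its call without any 1 of 5 arrays (AF119, AF120, AF121, AF126 and AF127).

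In Set 1, 1416576_at had 7.86, 8.25, 8.10 and 8.11 in stimulated at-risk arrays and 8.33, 8.24, 8.35 and 8.24 in stimulated normal arrays. Here the groups overlapped (-0.21, SE 0.13, adjusted p = 0.83), and the differences of -0.17 and -0.28 in the other probe sets were not called either. Over both sets, 1416576_at (-0.53, SE 0.10, adjusted p = 0.0123) and 1456212_x_at (-0.56, SE 0.11, adjusted p = 0.0172) fell, and 1455899_x_at was just outside the threshold (-0.52, SE 0.13, adjusted p = 0.0528). The difference between the sets passed the test for 1416576_at (-0.60, SE 0.14, adjusted p = 0.0368) and not for 1455899_x_at (adjusted p = 0.157) or 1456212_x_at (0.193), and the call was lost without any 1 of 12 arrays (AF84 to AF87, AF89 to AF91, AF118 to AF120, AF126 and AF127), with an adjusted p of up to 0.0856.

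**Figure D3:**
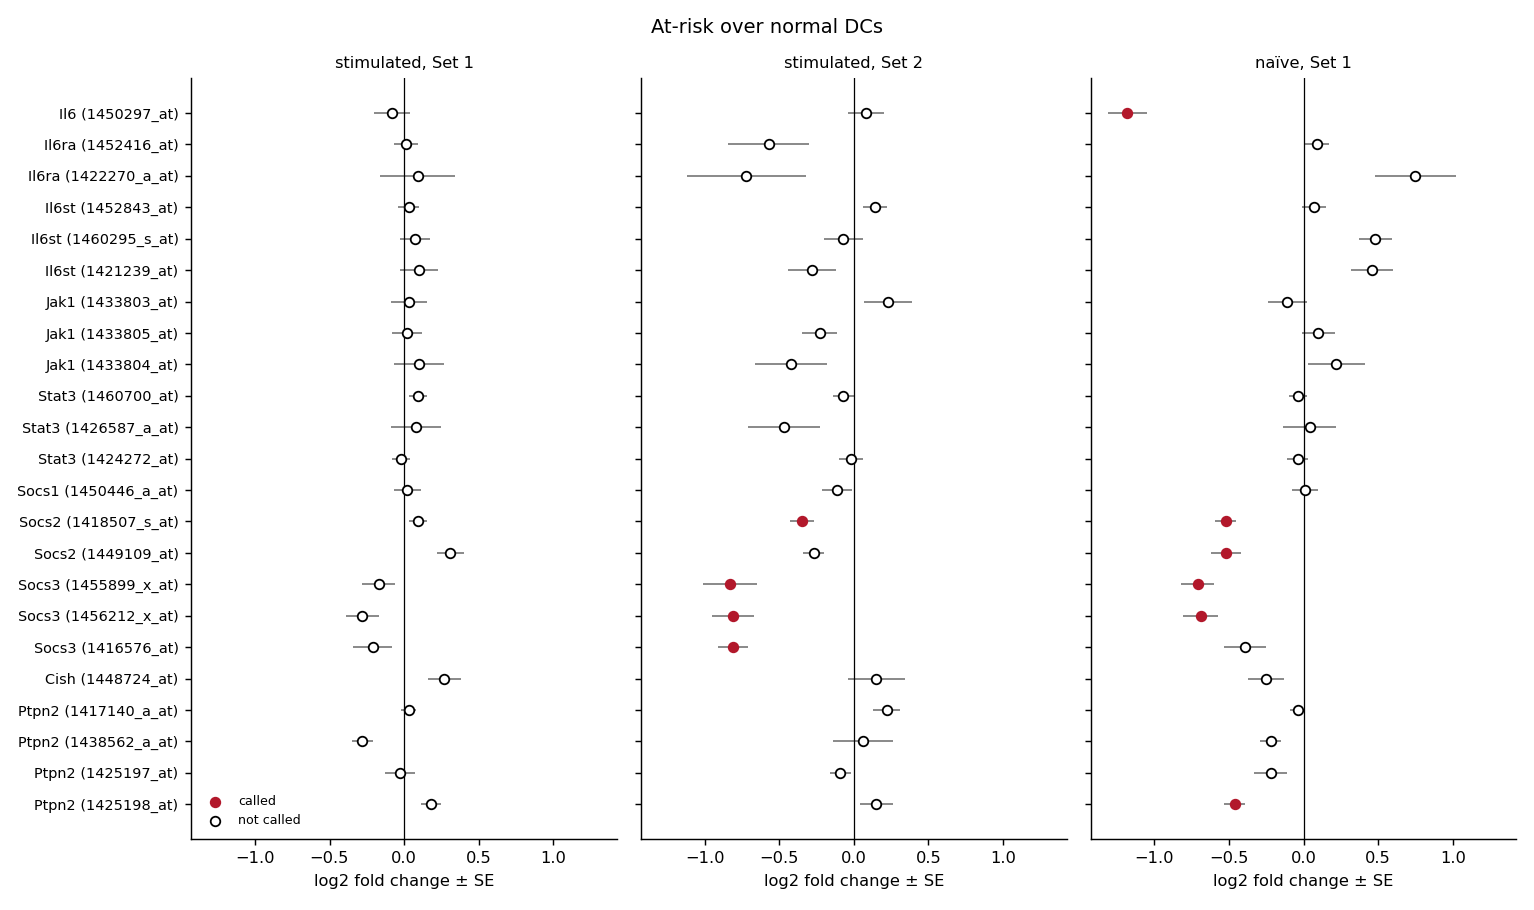
Log2 fold change ± SE (x axis) of the 23 probe sets (y axis) in at-risk over normal DCs, for stimulated pups of Set 1, stimulated pups of Set 2 and naïve pups of Set 1, with called probe sets in red. No probe set is called in stimulated DCs of Set 1, 4 are called in Set 2 and 6 pass the threshold in naïve DCs, all lower in at-risk. Of all probe sets on the array, 0.0707%, 4.62% and 0.34% were called. The naïve count is a description, since the genes were chosen on that comparison.

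Socs2, a suppressor known for its action on the growth hormone receptor and Stat5, followed the Il6 pattern in Set 1. By 1418507_s_at it had 10.33, 10.34, 10.46 and 10.44 in naïve at-risk arrays and 10.99, 10.84 and 10.92 in naïve normal arrays, without overlap (-0.52, SE 0.07). The stimulated arrays of Set 1 had 10.33, 10.29, 10.42 and 10.46 in at-risk pups and 10.22, 10.37, 10.19 and 10.34 in normal pups. Again the naïve normal arrays were the high ones. The other probe set, 1449109_at, differed by as much in naïve DCs (-0.52, SE 0.10), without overlap, but missed the threshold without any 1 of 10 of the 15 arrays (AF76, AF79 to AF83, AF85, AF87, AF90 and AF91). In normal pups after allergen Socs2 fell by 0.64 (SE 0.07, adjusted p = 2.51e-05) with 1418507_s_at and by 0.89 (SE 0.10, adjusted p = 3.25e-05) with 1449109_at. In at-risk pups the changes were -0.02 (SE 0.06, 95% interval -0.16 to 0.12) and -0.06 (SE 0.09, 95% interval -0.26 to 0.14).

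The difference in Socs2 between stimulated at-risk and normal DCs had opposite signs in the 2 sets. In Set 2, 1449109_at had 8.52, 8.58, 8.73, 8.61 and 8.66 in at-risk arrays and 9.02, 8.87, 8.78 and 8.91 in normal arrays (-0.27, SE 0.07, adjusted p = 0.0525, not called). In Set 1 it had 8.55, 8.89, 8.79 and 8.62 in at-risk arrays and 8.23, 8.41, 8.51 and 8.48 in normal arrays (0.31, SE 0.09, adjusted p = 0.341, not called). The groups lay apart in both sets, lower in at-risk in Set 2 and higher in Set 1. The difference between the sets was called, at -0.58 (SE 0.12, adjusted p = 0.0163), and stayed called without each of the 17 arrays. For 1418507_s_at the Set 2 fall was 0.35 (SE 0.08, adjusted p = 0.0426) and the difference between sets -0.44 (SE 0.11, adjusted p = 0.0442). Its Set 2 call was lost without any 1 of 8 of the 9 arrays, AF125 being the exception, since the fall was then under the threshold (0.29 without AF123) or the adjusted p above it (up to 0.114). Its call between the sets was lost without any 1 of 12 arrays (AF84, AF86, AF87, AF89 to AF91, AF118 to AF121, AF126 and AF127), with an adjusted p of up to 0.107.

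Socs1 and Cish were not called in any comparison. Socs1, best known as an inhibitor of interferon signaling, lay at 3.97 to 4.75 on all arrays, under the lower quartile of all probe sets. Cish, an inhibitor of Stat5-linked receptors, lay at 6.71 to 7.82. Its allergen change was 0.28 in at-risk pups (SE 0.11, adjusted p = 0.165) and -0.25 in normal pups (SE 0.12, adjusted p = 0.204), and in naïve DCs it was 6.79 to 6.92 in at-risk and 6.94 to 7.36 in normal arrays.

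Ptpn2 has 4 probe sets, of which 1 was called. The brightest, 1417140_a_at, had 10.94 to 11.45 on all arrays, and 1438562_a_at and 1425197_at lay at 8.85 to 9.76 and 7.13 to 7.76, none of them called in any comparison. In naïve DCs they were lower in at-risk pups by 0.04 (SE 0.05), 0.22 (SE 0.07) and 0.22 (SE 0.11), and the groups did not overlap for 1438562_a_at and 1425197_at. Their allergen changes in normal pups were -0.08, -0.08 and -0.28 (adjusted p = 0.399, 0.503 and 0.103). The dimmest, 1425198_at, had 7.33, 7.30, 7.27 and 7.28 in naïve at-risk arrays and 7.83, 7.74 and 7.70 in naïve normal arrays (-0.46, SE 0.07), with 7.34, 7.32, 7.56 and 7.34 in stimulated at-risk and 7.34, 7.21, 7.18 and 7.10 in stimulated normal arrays of Set 1. After allergen it fell by 0.55 in normal pups (SE 0.07, adjusted p = 0.000129) and changed by 0.09 in at-risk pups (SE 0.07, adjusted p = 0.491). Whether the probe sets differ from each other was not tested, and which transcripts each reads was not analysed here.

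**Figure D4:**
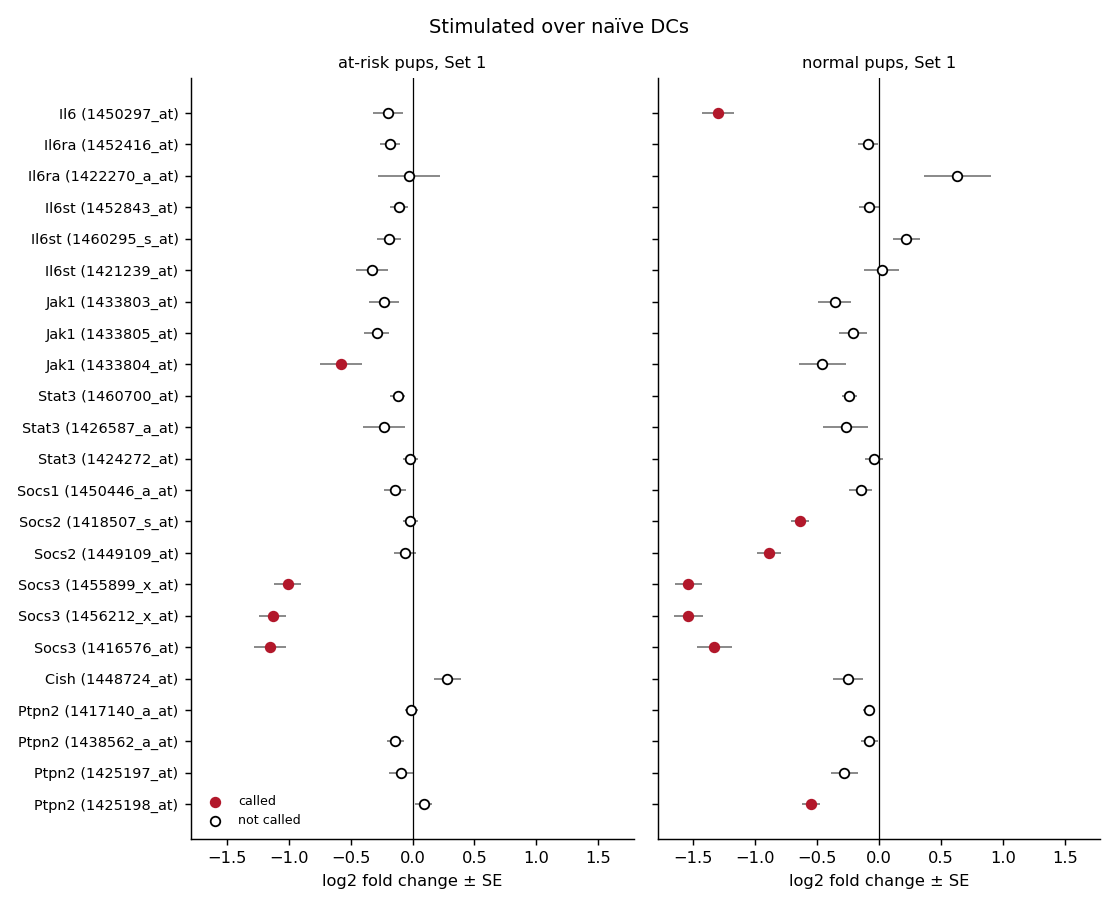
Log2 fold change ± SE (x axis) of the 23 probe sets (y axis) in stimulated over naïve DCs of Set 1, for at-risk pups and for normal pups, with called probe sets in red. All 3 Socs3 probe sets are called in both panels, and Il6 and Socs2 only in normal pups.

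Counted over the 10 genes, all calls outside the difference of maternal effects were negative. With allergen, 4 of 23 probe sets fell in at-risk pups (median of the 23 log2 fold changes -0.14), where 7.88% of all probe sets were called and 3.46% were called lower (median over all -0.02). In normal pups 7 of 23 fell (median -0.25, and 10 of 23 without AF79), where 11.5% were called and 5.76% were called lower (median 0.00). Both allergen counts use naïve arrays on which the genes were chosen, so they are no independent evidence. In naïve at-risk DCs 6 of 23 passed the threshold (median -0.04, and 4 of 23 without AF79), with 0.34% of all probe sets called and 0.239% called lower, a count from which nothing is read since the genes were chosen on it. In stimulated at-risk DCs 2 of 23 fell over both sets (median -0.06), with 1.73% called and 0.415% called lower. Set 2 alone gave 4 of 23 (3 of 23 without AF123), with 4.62% called and 2.04% lower, and Set 1 alone gave 0 of 23 (5 of 23 at an unadjusted p under 0.05), with 0.0707% called. Set 2 differed from Set 1 in 3 of 23, all lower, with 1.79% called and 1.13% called lower.

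The difference of maternal effects, stimulated minus naïve in Set 1, equals the difference between the allergen changes in at-risk and in normal pups. It holds the naïve arrays on which the genes were chosen and is given as a description. It was 1.10 for Il6 (SE 0.17), 0.62 and 0.83 for Socs2 (SE 0.09 and 0.14), 0.64 for Ptpn2 1425198_at (SE 0.10), and these 4 of 23 probe sets passed the threshold, with 0.0486% of all probe sets called, all of them higher. For Socs3 it was 0.54, 0.41 and 0.18 (SE 0.16, 0.16 and 0.19), and none passed. Over 15 fits that each left out 1 array, Il6 passed in 3 and Ptpn2 1425198_at in 5. Socs2 passed in 4 with 1418507_s_at and in 1 with 1449109_at.

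Markers of other cells moved in the same comparisons. With allergen, 9 of 12 T cell markers were called lower in at-risk and 11 of 12 in normal pups, 7 and 6 of 9 NK cell markers and 4 and 6 of 10 macrophage markers were called lower, and all 9 platelet markers and 7 of 8 erythroid markers were called higher in both. Of 9 neutrophil markers, 2 were called higher and none lower in at-risk pups (median change -0.06), and 1 was called higher and 5 lower in normal pups (median -0.43), the difference itself being called for none of them (5 at an unadjusted p under 0.05). Of the DC markers, Zbtb46 (0.48) and Xcr1 (0.80) were called higher and Ccr7 (-0.48) lower in normal pups, and none was called in at-risk pups. The mean of the T cell markers was 8.98 to 9.05 in stimulated at-risk and 8.75 to 9.85 in stimulated normal arrays of Set 1, against 9.84 to 9.91 in naïve at-risk and 10.18 to 10.26 in naïve normal arrays. Naïve at-risk and normal arrays thus did not overlap in it, and the median difference of the 12 markers was -0.33, with no single marker called (4 at an unadjusted p under 0.05). Of 9 B cell markers, Cr2 was called lower in naïve at-risk DCs (-0.71, SE 0.10, with a median of -0.16 over the 9). The means of NK cell markers (10.11 to 10.27 in at-risk, 10.14 to 10.39 in normal) and of macrophage markers (11.61 to 11.88 and 11.69 to 11.98) overlapped in naïve DCs.

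In stimulated DCs of Set 2, 7 of 12 of T cells, 7 of 9 of NK cells and 3 of 10 of macrophages were called lower, and 9 of 9 of platelets, 4 of 8 of erythroid cells and 5 of 9 of B cells were called higher in at-risk DCs, and 6 of 10 endothelial and stromal markers were called higher too (median difference 0.71). In Set 1 no marker of these lists was called between stimulated at-risk and normal DCs, with a median difference of -0.15 for T cell, 0.47 for erythroid and 0.22 for endothelial and stromal markers. At an unadjusted p under 0.05 there were 1 of 12 T cell, 6 of 8 erythroid and 3 of 10 endothelial and stromal markers. Neutrophil markers lay apart there, with a mean of 11.10 to 11.51 in stimulated at-risk and 10.54 to 10.82 in stimulated normal arrays (median difference 0.80, 1 of 9 called higher, 8 of 9 at an unadjusted p under 0.05), whereas in Set 2 they had 10.46 to 11.52 and 10.60 to 10.73. The part of all these markers in the changes of Il6, Socs2, Socs3, Jak1 and Ptpn2 was not tested.

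**Figure D5:**
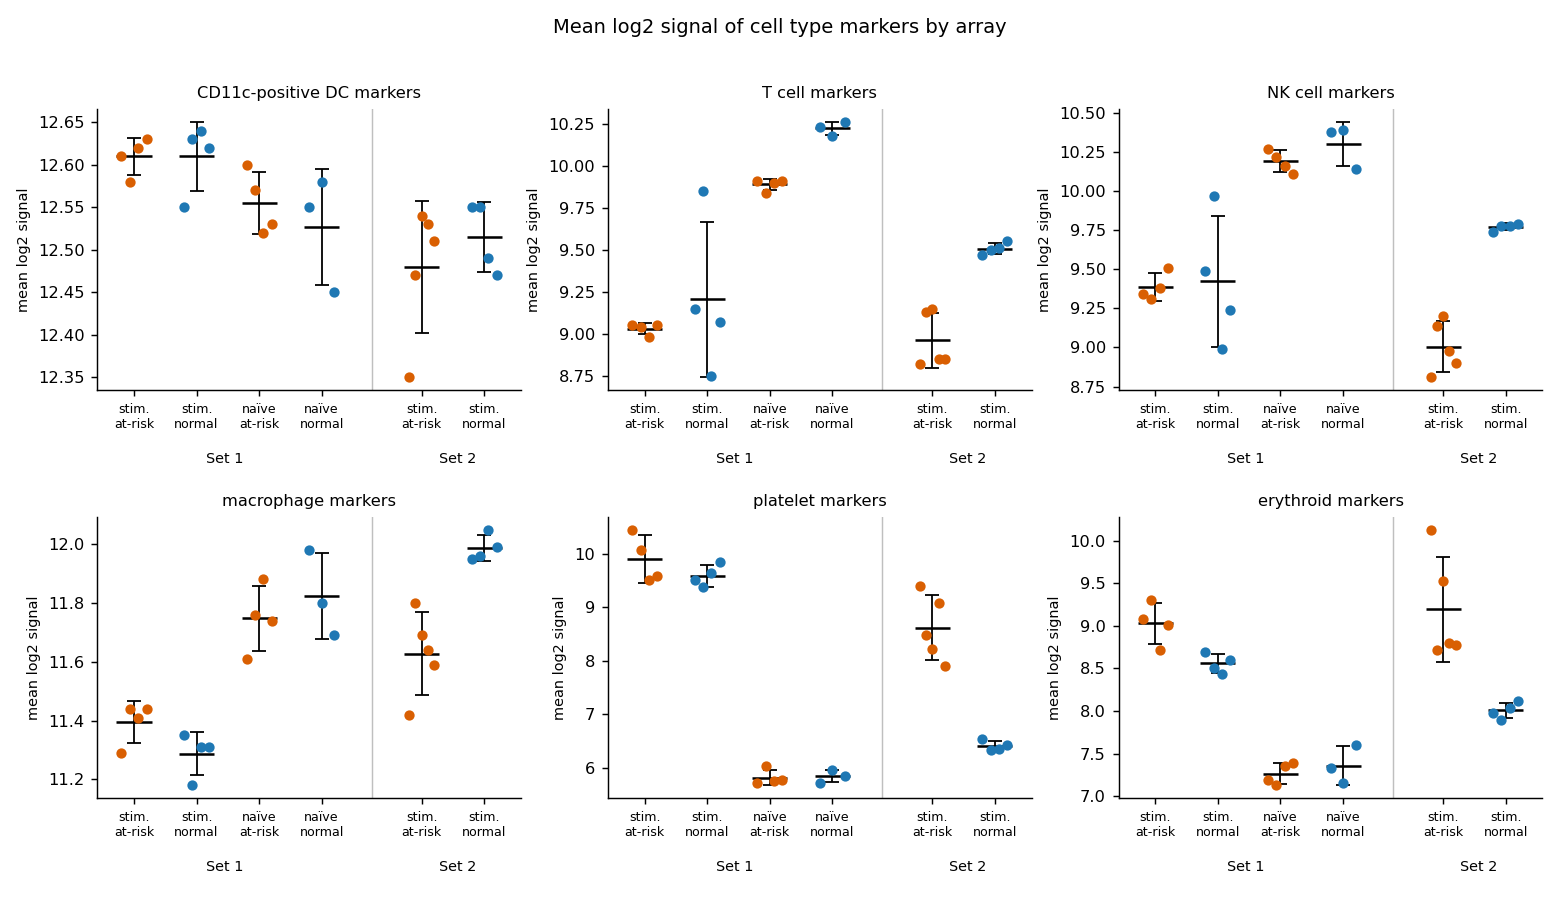
Mean log2 signal (y axis) of markers of DCs, T cells, NK cells, macrophages, platelets and erythroid cells in the 6 groups (x axis), with 1 point per array, at-risk in orange, normal in blue, and black lines for the mean ± SD. DC markers stay within 12.35 to 12.64, while platelet markers lie between 5.72 and 6.03 in naïve arrays and above 9.36 in stimulated arrays of Set 1.

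Other genes of the pathway were read from a list of 74, of which 68 were measured with 128 probe sets. With allergen, 2 probe sets rose and 16 fell in at-risk pups (14.1% called, against 7.88% of all probe sets). In normal pups 6 rose and 24 fell (23.4%, against 11.5%). The list was chosen with earlier results of these data known, so nothing is read from these shares. Among the falls with the smallest adjusted p, Il27ra, the receptor for IL-27, fell by 0.90 in at-risk and 1.14 in normal pups, Il2ra, the IL-2 receptor alpha chain, by 0.68 and 0.97, and Il10, an anti-inflammatory cytokine induced by Stat3, by 0.71 and 1.46. Cebpb and Nfil3, transcription factors that Stat3 can induce, fell by 0.89 and 0.86 in at-risk and by 1.18 and 1.41 in normal pups. Il2ra and Stat4 (-0.90 in at-risk and -1.29 in normal pups) are also known from T and NK cells, whose markers fell in the same comparisons, and the part of those cells was not tested. Ccnd2, a cyclin induced by Stat5, fell in 6 of its probe sets in both comparisons.

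In stimulated at-risk DCs over both sets, 3 probe sets of these other genes rose and 1 fell (3.12% called, against 1.73% of all probe sets). Osmr, the receptor chain for oncostatin M, rose by 1.02 (SE 0.24, adjusted p = 0.0358), Timp1, an inhibitor of matrix proteases induced by Stat3, by 0.47 (SE 0.10, adjusted p = 0.0227), and Il12a, a subunit of IL-12, by 0.41 (SE 0.08, adjusted p = 0.0137). Cebpb fell by 0.53 (SE 0.13, adjusted p = 0.047). In the same comparison 3 of 10 endothelial and stromal markers were called higher (Cldn5, Tek and Col1a2), and their part in these rises was not tested. Set 2 alone gave 3 rises and 10 falls (10.2% called, against 4.62% of all probe sets). The smallest adjusted p was that of Il1rn, the IL-1 receptor antagonist (-0.85, SE 0.06, adjusted p = 0.000213), and the change of Osmr was 1.67 (SE 0.20). In Set 1 alone limma called 0 of the 128 (12 at an unadjusted p under 0.05). In naïve DCs 1 of the 128 probe sets passed the threshold (0.781%, against 0.34% of all probe sets). It was that of Il10, lower by 0.69 in at-risk pups (SE 0.12).

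Over the 15 arrays of Set 1, the probe sets most like Il6 were those of Impdh1 (Pearson r = 0.936), Cxcl10 (0.935), Perp (0.922), Socs2 (0.915) and Ifna2 (0.910). Most like Socs2 were Snap91 (0.932), Csn2 (0.925), Ifna2 (0.917), Il6 (0.915) and Spry2 (0.912). Il6 and Socs2 thus stood on each other's lists, and Socs3 on neither. Socs3 was most like Prdm1 (0.981), 2 probe sets of Gna13 (0.980 and 0.979), Dst (0.978) and Ctla4 (0.973). These correlations describe arrays that share group differences and carry no test.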

How the data were processed

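RNA of CD11c+ splenic DCs was measured on 24 arrays. The authors deposited 1 table of linear signal intensity for each probe set, made with RMA (version not stated). The methods describe separate preprocessing of the sets and probe sets redefined by RefSeq, whereas the table holds the manufacturer's probe sets, so it may not be the table the methods describe. Here log2 was taken without a pseudocount. No column belonged to no sample (0 such columns). Of 22626 probe sets left after 64 controls were set aside, 20380 had 1 gene symbol, 691 several and 1555 none, and only those with 1 were named. Signal over background was not given, and the number of arrays limits the precision.

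limma 3.58.1 in R 4.3.3 (lmFit, eBayes, Benjamini-Hochberg) was fitted with 1 mean per group over the 15 arrays of Set 1, and over the 17 stimulated arrays with set as a term or, for the difference between sets, with the interaction. Set 1 alone used the 15-array fit and Set 2 alone its 9 arrays. The code was tested on simulated data. Set and group came from array numbers and titles in the labels.

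The 10 genes, the pathway and marker lists, the tests and the alternatives were chosen with earlier results of these data known. All probe sets of the 10 genes are described, brightest first; other pathway genes are named where called, at most 6 per comparison by adjusted p, as are the 5 probe sets most correlated with Il6, Socs2 and Socs3. The plots used Python 3.11.15 with numpy 2.4.6, pandas 2.3.3 and matplotlib 3.10.9.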

Additional observations from a re-analysis of the deposited data

Results flagged for a closer look

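Within groups of 4 or 5 arrays, 8 of 115 sets of values held 1 array far from the rest, where chance gives about 1 in 20. In naïve at-risk DCs these were Il6ra 1452416_at on AF83 (11.06, others 11.33 to 11.36) and Il6st 1421239_at on AF82 (6.51, others at 6.45). In stimulated at-risk DCs of Set 1 they were Jak1 1433803_at on AF91 (11.60, others 11.30 to 11.32) and Ptpn2 1438562_a_at and 1425198_at on AF90 (9.36, others 9.18 to 9.20, and 7.56, others 7.32 to 7.34). In stimulated normal DCs they were Jak1 1433804_at on AF84 of Set 1 (9.70, others 9.23 to 9.30), Il6st 1421239_at on AF118 of Set 2 (6.34, others 5.91 to 5.98) and Cish on AF121 of Set 2 (6.81, others 7.10 to 7.12).

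The effect of the mother differed between stimulated and naïve DCs of Set 1 by 1.10 for Il6, 0.62 and 0.83 for Socs2 and 0.64 for Ptpn2 1425198_at, values that hold the naïve comparison on which the genes were chosen. With 1 array left out at a time, only 0 to 3 of the 23 probe sets passed for that difference. Between stimulated DCs of Set 2 and Set 1 the effect of the mother differed by -0.60 for Socs3 1416576_at and by -0.44 and -0.58 for Socs2, by the interaction of set and mother in limma.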

How the results depend on the processing

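The number of the 23 probe sets called in naïve DCs was 6 and was 1 (Il6) with only the compared groups in the fit. In stimulated DCs it was 2 over both sets, 0 in Set 1 alone, 4 in Set 2 alone and 1 with no term for set. Between the sets it was 3, and 5 with array weights. Leaving out each array gave 4 to 7 in naïve DCs, 2 to 3 in stimulated DCs, 2 to 4 in Set 2 alone (chosen after seeing the data), 3 to 4 with allergen in at-risk and 7 to 10 in normal pups (10 without AF79), 0 to 3 for the difference of maternal effects (0 without AF76, AF77, AF81, AF82, AF83, AF86, AF87, AF89 or AF91), and 1 to 3 between the sets. Quantile normalization, median centring, a filter on dim probe sets (under the 40th percentile), trend and robust, and no fold threshold kept each count within 1.5 times. That filter left 18 of the 23 probe sets and set Il6 aside, so Il6 was not tested under it. No direction of a called probe set turned. Over the called probe sets and the brightest of Il6, Socs2 and Socs3, 713 alternatives kept their side of the threshold, 120 lost it and 8 gained it; the cause was not tested. Over all uncalled probe sets, 23 of 2806 alternatives gained a call, 15 of them outside those just counted (Il6ra, Il6st, Jak1, Stat3 and Socs3 1416576_at).

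Over all probe sets, naïve DCs gave 77 calls, 125 with all 24 arrays and 12 with only the compared groups, and 44 to 269 without 1 array. Stimulated DCs gave 391, 242 without dim probe sets, 726 with all 24 arrays, 16 in Set 1, 1045 in Set 2, 121 with no term for set and 139 to 578 without 1 array. The difference of maternal effects gave 11, 19 with median centring, 21 without dim probe sets and with trend and robust, 42 with array weights and 1 to 30 without 1 array. The difference between sets gave 404, 2454 with array weights and 204 to 989 without 1 array. No paired analysis was possible because the labels share no replicate number between groups.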
